A study of Mus musculus with 4 samples.

Results

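The nuclear oxidative phosphorylation genes are the genes of the cell nucleus that encode subunits of the respiratory chain and of ATP synthase in mitochondria. They were taken by symbol from a single-cell RNA sequencing table of mouse testis, as every gene whose name starts with Nduf and a letter a, b, c, s or v before a number (complex I), is Sdha, Sdhb, Sdhc or Sdhd (complex II), starts with Uqcr (complex III), starts with Cox and a number from 4 to 8 (complex IV), or starts with Atp5 (complex V), without names marked as pseudogenes. The rule used no measured value. It found 83 of the 18419 genes in the table, with 37 named for complex I, 4 for complex II, 8 for complex III, 17 for complex IV and 17 for complex V. All 83 had at least 1 transcript in each library. Genes encoded on mitochondrial DNA were not among the listed genes.

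Oxidative phosphorylation moves electrons from NADH and succinate through complexes I to IV to oxygen, and complex V uses the proton gradient built on the way to make ATP. Most subunits are made in every tissue, but several subunits of complex IV exist in a common form and a second form that another gene encodes and that is restricted to a tissue. Testis has its own forms, among them Cox6b2, Cox7b2 and Cox8c, as well as a testis cytochrome c (Cyct) and a germ cell ADP/ATP carrier (Slc25a31). Spermatogonia (SPGs) become spermatocytes (SPCs) that go through meiosis, and these give spermatids (STs), while Leydig cells make androgens in the space between the tubules and Sertoli cells nurse the germ cells. The X chromosome is silenced in male germ cells during meiosis.

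The libraries came from testes of male ICR mice, an outbred stock, that were 3 weeks old at the start. A0 was the vehicle control, A10 received alginate oligosaccharides (AOS, short sugar chains cut from a seaweed polysaccharide) at 10 mg/kg body weight by mouth, B0 received a single injection of 40 mg/kg busulfan, an alkylating drug that kills dividing germ cells, and BA10 received that injection and then AOS at 10 mg/kg. The time of dosing is given as 2 weeks in one place and 5 weeks in another. The 4 groups were 1 library each, made from testes of 6 mice pooled before capture with the 10x Genomics 3' chemistry, so no animal can be told apart, no difference was tested, and every interval covers counting error only. Transcripts were counted by their unique molecular identifiers (UMIs), and levels are given as UMIs per 1000000 UMIs (CPM) over the cells summed. A UMI stands for a single 3' end, so counts do not scale with transcript length by design. CPM of different genes are set side by side on that basis, but whether genes were captured and counted equally well was not tested.

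The libraries differed in depth and in the cells they held. A0 had 8941 cells with a median of 12685 UMIs, A10 had 9682 with 10948, B0 had 4659 with 4214 and BA10 had 3778 with 17989, and no BA10 cell had fewer than 9013 UMIs. Of 26683 distinct cell barcodes, 374 occurred in more than 1 library. Cells were grouped into 28 clusters without use of the 83 genes and named by markers, as "SPC-like" and so on. A0 and A10 held 3280 and 3558 SPC-like and 5370 and 5843 ST-like cells. B0 held 2946 Leydig-like cells (63.2% of the library), 237 SPG-like, 207 SPC-like, 199 Sertoli-like and 6 ST-like cells, and BA10 held 2465 SPC-like, 434 ST-like and 127 Leydig-like cells. Over a whole library, the level within a cell and the share of each cell class cannot be told apart.

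Together the 83 genes gave 2.13% of all UMIs in A0 (exact 95% interval 2.129 to 2.134), 2.35% in A10 (2.347 to 2.352), against 5.45% in B0 (5.436 to 5.454) and 3.67% in BA10 (3.664 to 3.672). The order of the libraries was the same in each of the 5 complexes: A0 was lowest, A10 next, then BA10, and B0 was highest. For complex II the counting intervals of A0 (0.0319 to 0.0325) and A10 (0.0322 to 0.0328) overlap. Among cells with at least 9013 UMIs, of which B0 had 448, BA10 was instead above B0 in complex I (1.28% and 1.27%, with counting intervals that overlap), complex II (0.0537% and 0.0443%) and complex V (0.59% and 0.582%). In A0, complex IV gave 0.774% of UMIs, complex I 0.75%, complex V 0.366%, complex III 0.209% and complex II, which has few subunits, 0.0322%. In B0 the same complexes gave 1.68%, 1.83%, 1.09%, 0.772% and 0.0802%. Relative to A0, complexes III and V stood further up in B0 than the other 3 did.

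Classes of cells spread more widely than libraries. Leydig-like cells of B0 were highest, at 6.86% of UMIs (interquartile range of single cells 6.28 to 7.49). Among germ cells named by markers the share was 3.99% in SPG-like cells of B0 (3.58 to 4.36) and 4.70% in its SPC-like cells (4.2 to 5.13). The 557 unnamed cells of B0 held 3.53%, and 491 of them were in cluster 11. There spermatocyte markers scored highest, with the Sertoli markers Rhox8, Aard and Defb36 among the leading genes. SPC-like cells held 2.86% in A0, 3.06% in A10 and 3.78% in BA10. ST-like cells held the least, 1.61% in A0, 1.77% in A10 and 2.81% in BA10. Sertoli-like cells of B0, at 3.33%, were below both germ cell classes of the same library. Its macrophage-like cells, at 5.49%, were not alike. The 343 in cluster 20 held 6.20%, with Insl3, a hormone of Leydig cells, at 10520 CPM. The 96 in cluster 25 held 3.55%, below both germ cell classes, with Insl3 at 452 CPM.

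**Figure D1:**
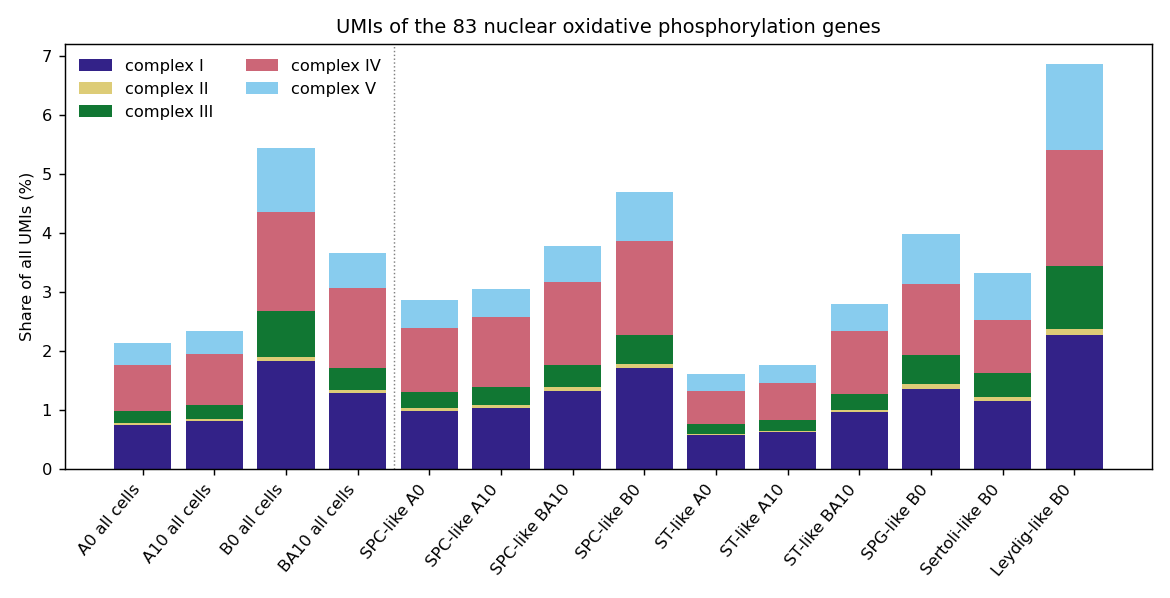
Share of all UMIs (%) given by the 83 genes, stacked by complex, for each library over all cells (left of the dotted line) and for cell classes within libraries (right). Each bar is 1 library or 1 class of 1 library with no replicate. B0 stands highest among libraries at 5.45%, its Leydig-like cells highest among classes at 6.86%, and ST-like cells of A0 lowest at 1.61%.

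Comparing B0 with A0 asks how testis cells left after busulfan differ from control cells. A gene was compared where the mean of both libraries was at least 10 CPM, the log2 ratio was taken after adding 1 CPM, and a gene was called where it was past 2-fold. Of the 83 genes 81 could be compared, and their median log2 ratio was 1.26 against 0.23 over all 8688 genes compared. Past 2-fold, 48 were higher in B0, where 37.5% of all genes compared were, and 2 were lower, where 24.5% of all genes were. Ribosomal protein genes, which are not in the pathway, had a median of 1.45 in the same comparison. Among cells with at least 9013 UMIs the counts were 29 higher and 0 lower and the median was 0.81. The shares of all genes at that limit are not given, so these counts cannot be set against them. Complexes I to V had medians of 1.23, 1.35, 1.49, 1.22 and 1.26 on the log2 scale in that order.

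The 5 members furthest above A0 included common and X-linked forms. Cox7b, a small complex IV subunit encoded on the X chromosome, was at 1.54 CPM in A0 and 1.55 in A10, against 326 in B0 and 10.7 in BA10, a log2 ratio of B0 over A0 of 7.01 (without the added CPM the ratio has a counting interval of 7.53 to 7.92). Ndufb11, an X-linked complex I subunit, was at 4.52 CPM in A0 and 4.89 in A10, against 502 in B0 and 23.2 in BA10 (6.51). Cox7a1, the heart and muscle form of Cox7a, was at 0.332 CPM in A0 and 0.515 in A10, against 114 in B0 and 4.62 in BA10 (6.43, with a counting interval of 8.02 to 8.86 without the added CPM, which would rank it first). In all of these B0 was highest and BA10 came second, with A0 and A10 far lower and close to each other. Cox8a, the common form of subunit 8, was at 15.8 CPM in A0 and 17.7 in A10, against 1407 in B0 and 72.9 in BA10 (6.39). Ndufa4, named for complex I but since assigned to complex IV, was at 11.4 CPM in A0 and 12.7 in A10, against 759 in B0 and 48.1 in BA10 (5.94).

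The 5 members furthest below A0 in B0 included the 3 testis forms of complex IV. Ndufa4l2, a paralogue of Ndufa4 known as a target of the hypoxia-inducible factor, was at 100.5 CPM in A0 and 112 in A10, against 45.6 in B0 and 156 in BA10, a log2 ratio of -1.12. Atp5s, which encodes coupling factor B and is not a core subunit of ATP synthase, was at 102 CPM in A0 and 101 in A10, against 50.1 in B0 and 104 in BA10 (-1.01). These were the 2 members past 2-fold lower. Cox8c, the testis form of subunit 8, was at 1440.0 CPM in A0 and 1637 in A10, against 976 in B0 and 3047 in BA10 (-0.56). Cox7b2 was at 550.3 CPM in A0 and 650.2 in A10, against 375 in B0 and 908 in BA10 (-0.55) and Cox6b2 at 931 CPM in A0 and 1094 in A10, against 637 in B0 and 1603 in BA10 (-0.55), both lowest in B0 and highest in BA10.

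The 2 most abundant members of each complex, by mean level over the libraries, were all higher in B0 than in A0 except Cox8c. In complex I these were Ndufc1, at 476 CPM in A0 and 603 in A10, against 1060.1 in B0 and 918 in BA10, and Ndufb8, at 544 CPM in A0 and 534 in A10, against 944 in B0 and 758 in BA10. In complex II they were Sdhb, the iron-sulphur subunit of succinate dehydrogenase, at 188 CPM in A0 and 182 in A10, against 444 in B0 and 265 in BA10, and Sdha, its flavoprotein, at 82.2 CPM in A0 and 85.1 in A10, against 173 in B0 and 149.5 in BA10. B0 was the highest library for each of the 4. In complex III they were Uqcrq, at 566 CPM in A0 and 623 in A10, against 1822 in B0 and 1067 in BA10, and Uqcr10, at 233 CPM in A0 and 301 in A10, against 2491 in B0 and 531 in BA10, small subunits of cytochrome bc1. Next to Cox8c in complex IV came Cox4i1, the common form of subunit 4, at 1049 CPM in A0 and 1095 in A10, against 2089 in B0 and 1910.1 in BA10. In complex V they were Atp5j, coupling factor 6, at 635 CPM in A0 and 663 in A10, against 1276 in B0 and 907 in BA10, and Atp5b, the catalytic beta subunit, at 557 CPM in A0 and 544 in A10, against 721 in B0 and 758 in BA10. Uqcr10 differed most between the libraries, and Atp5b differed least and was higher in BA10 than in B0.

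Comparing BA10 with B0 asks what differed when AOS followed busulfan. The median log2 ratio of the 81 genes compared was -0.56, against -0.16 over all genes and -0.62 over ribosomal protein genes. Past 2-fold, 26 members were lower in BA10, where 34.1% of all genes compared were, and 6 were higher, where 20.5% of all genes were. The 5 furthest below were Cox7b (-4.80), Ndufb11 (-4.38), Cox7a1 (-4.36), Cox8a (-4.25) and Ndufa4 (-3.95), and the 5 furthest above were Ndufa4l2 (1.75), Cox8c (1.64), Cox6b2 (1.33), Cox7b2 (1.27) and Ndufv2 (1.15), all as log2 ratios. The members high in B0 against A0 were thus the low ones here, but both comparisons share the B0 library, so they are not independent. Among cells with at least 9013 UMIs, of which B0 had 448, the median was -0.0065, 5 members were past 2-fold lower and 0 were higher, with no shares of all genes given at that limit. In those B0 cells Cox8c made up 94.4% of the UMIs of Cox8a and Cox8c, against 41.0% in all B0 cells, so the limit also changed which cells were compared.

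BA10 against A0 compares busulfan followed by AOS with the control, and most cells of both libraries were SPC-like or ST-like. Of 79 members compared, 78 were higher in BA10, as were 63.3% of all genes compared, with a median log2 ratio of 0.86 against 0.33 over all genes and 0.70 over ribosomal protein genes. Past 2-fold, 26 were higher and 0 lower, where 13.8% and 19.3% of all genes compared were. The highest were Cox8a (2.14), Ndufb11 (2.13), Ndufa4 (1.99), Ndufa1 (1.97) and Ndufa3 (1.71), and the lowest Ndufa13 (-0.042), Atp5s (0.027), Uqcrfs1 (0.11), Ndufs1 (0.11) and Atp5g1 (0.24), as log2 ratios. With ratios taken against the median of all genes, 10 members in place of 26 were past 2-fold higher, and the share of all genes with that scaling is not given.

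A10 against A0 compares AOS with vehicle in mice without busulfan. The differences were small: of 78 members compared 59 were higher in A10 and 19 lower, where 41.3% of all genes were higher, with a median log2 ratio of 0.12 against -0.03 over all genes. Past 2-fold, 0 were higher and 0 lower, where 0.0302% and 0.0453% of all 6617 genes compared were. The furthest above were Atp5k (0.51), Ndufa3 (0.47), Ndufa1 (0.46), Uqcr11 (0.41) and Ndufs4 (0.40), and the furthest below Ndufs1 (-0.091), Atp5sl (-0.088), Uqcrfs1 (-0.086), Ndufs3 (-0.068) and Atp5g2 (-0.062). Atp5k, a small subunit that joins ATP synthase into dimers, was at 54.4 CPM in A0 and 77.9 in A10, against 437 in B0 and 154 in BA10. Ndufs1, the largest core subunit of complex I, was at 63.1 CPM in A0 and 59.2 in A10, against 58.6 in B0 and 68.2 in BA10. The 5 members below the limit for this comparison were Cox4i2, Cox6a2, Cox7a1, Cox7b and Ndufb11.

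**Figure D2:**
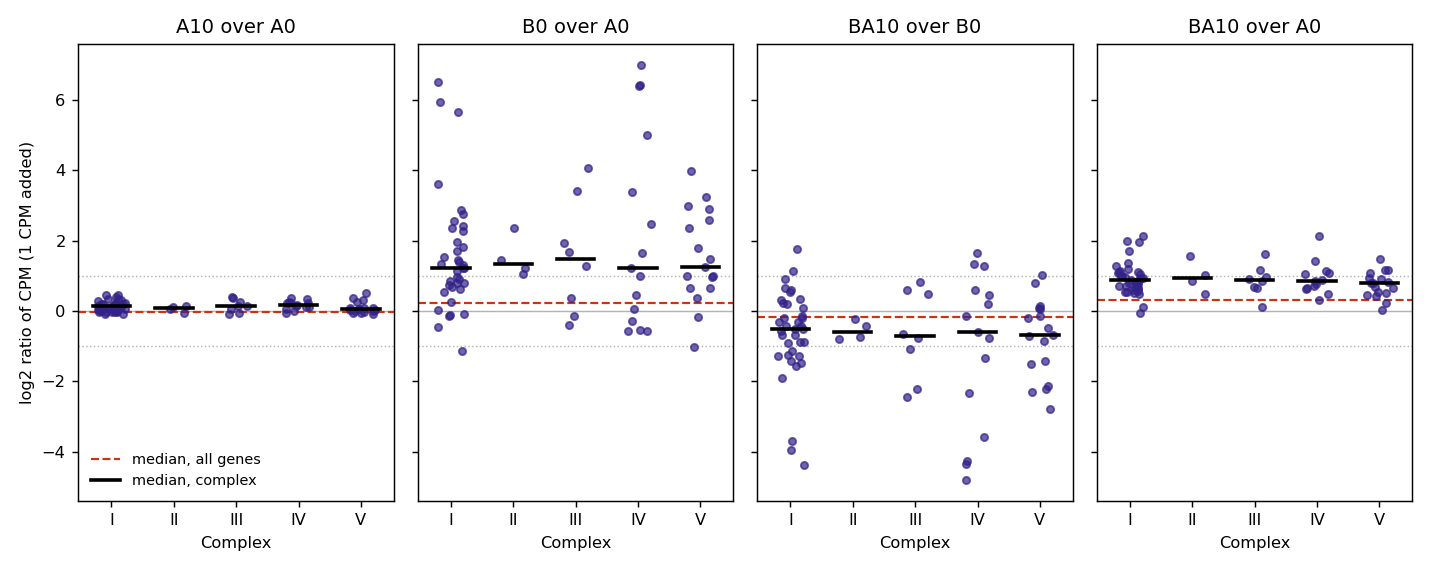
Log2 ratio of CPM (1 CPM added) of each member that could be compared, by complex, in the 4 comparisons of libraries. Points are genes, black lines the median of a complex, the red dashed line the median of all genes compared, and dotted lines 2-fold. Members lie close to 0 in A10 over A0, reach from -1.12 to 7.01 in B0 over A0, and sit above the line of all genes in BA10 over A0 with few exceptions.

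In 4 pairs of genes, SPC-like and ST-like cells of A0 and Leydig-like cells of B0 were high in different genes of the pair. Of these genes Ndufa4l2, the paralogue of Ndufa4, was not counted as a subunit. SPC-like cells of A0 had 2293 CPM of Cox8c and 13.7 of Cox8a, and Leydig-like cells of B0 had 91.5 and 2241. The testis form was thus 99.4% of both in the former and 3.92% in the latter. For Cox6b, which lies where complex IV dimers meet, SPC-like cells of A0 had 1201 CPM of Cox6b2 and 29.9 of Cox6b1, and Leydig-like cells of B0 157 and 1484. For Cox7b they had 781 CPM of Cox7b2 and 0.619 of Cox7b against 29.7 and 547. For Ndufa4 they had 136 CPM of Ndufa4l2 and 10.7 of Ndufa4 against 6.85 and 1217. All 4 pairs pointed the same way, and ST-like cells of A0 sided with the spermatocytes, with 98.3%, 96.7%, 99.5% and 90.3% of the second form.

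SPG-like cells of B0, named by markers of germ cells before meiosis, sided with the somatic cells in 3 of these pairs. A0 and A10 held 1 cell named SPG-like each and BA10 held 12, so only those of B0 are given. Insl3, a hormone of Leydig cells, was at 264 CPM in these cells. In B0 they had 1224 CPM of Cox8a and 95.6 of Cox8c, 756 of Cox6b1 and 109 of Cox6b2, and 583 of Ndufa4 and 1.99 of Ndufa4l2. Their Cox8c and Ndufa4l2 levels were close to or below those of Leydig-like cells of the same library, and their Cox6b2 was lower than there, and the part of free RNA in these levels was not tested. Cox7b2 differed in part: SPG-like cells had 151 CPM, against 29.7 in Leydig-like and 36.8 in Sertoli-like cells, but the 68 endothelial-like cells had 286. Those endothelial-like cells did not split as Leydig-like cells did, with 756 CPM of Cox8c beside 693 of Cox8a and 175 of Cox7b, while SPG-like cells had more Cox7b2 than Cox8c. In SPG-like cells Cox7b2 was 57.1% of its pair. In SPC-like cells of the same library the share was 97.9% for Cox7b2, 93.0% for Cox8c and 87.6% for Cox6b2, but 18.4% for Ndufa4l2. In A0, Ndufa4l2 was at 43.0 CPM in cluster 16, the SPC-like cluster with the highest spermatocyte marker score, and at 128 to 158 in the other 4 SPC-like clusters, so it also varied among spermatocytes. Unnamed cluster 17, with 229 cells of A0, shared the leading genes Stra8 and Crabp1 with the SPG-like cluster, but spermatocyte markers scored highest. Its A0 cells had 1275 CPM of Cox8c and 55.1 of Cox8a, and 836 of Cox6b2 and 55.8 of Cox6b1. They had 448 of Cox7b2 and 3.57 of Cox7b, but 49.98 of Ndufa4l2 and 72.9 of Ndufa4. The spermatid gene Prm1 was at 16922 CPM there, and whether the cluster held cells before meiosis was not tested.

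**Figure D3:**
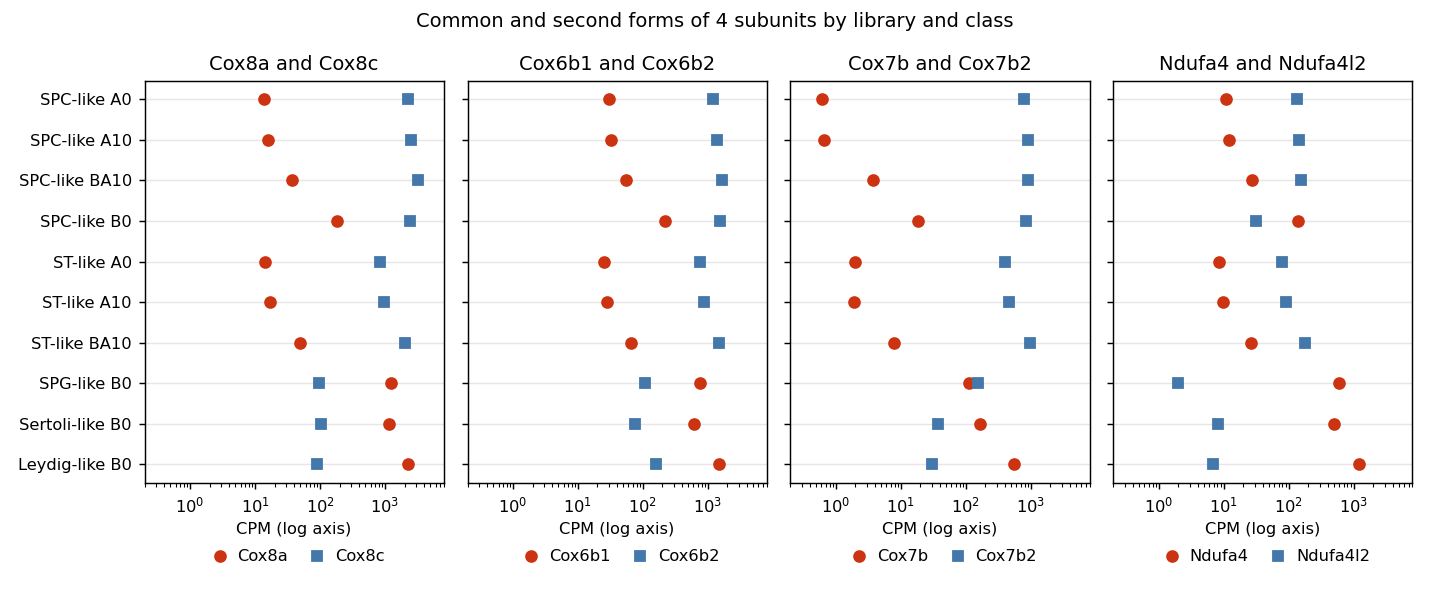
CPM on a log axis of the common form (red circles) and the second form (blue squares) of 4 pairs, by cell class and library. Ndufa4l2 is a paralogue of Ndufa4 and was not counted as a subunit. Each point is 1 class of 1 library. Blue lies right of red in SPC-like and ST-like cells of A0, A10 and BA10, the order turns in Sertoli-like and Leydig-like cells of B0, and SPC-like cells of B0 turn only for Ndufa4 and Ndufa4l2.

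The promoters of 2 of these pairs, Cox6b and Cox7b, are shown because in each the genes encode forms of the same subunit and were high in different cells. Each run is the 250 bases before the annotated start, from RefSeq on GRCm38.p6, read in the direction of the gene.
Cox6b2, chr7:4753095-4753344, minus strand: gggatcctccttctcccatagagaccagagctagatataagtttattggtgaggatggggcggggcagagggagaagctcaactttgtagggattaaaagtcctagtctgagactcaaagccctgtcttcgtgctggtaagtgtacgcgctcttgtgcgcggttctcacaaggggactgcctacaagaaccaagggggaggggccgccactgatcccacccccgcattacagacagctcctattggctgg
Cox6b1, chr7:30626115-30626364, minus strand: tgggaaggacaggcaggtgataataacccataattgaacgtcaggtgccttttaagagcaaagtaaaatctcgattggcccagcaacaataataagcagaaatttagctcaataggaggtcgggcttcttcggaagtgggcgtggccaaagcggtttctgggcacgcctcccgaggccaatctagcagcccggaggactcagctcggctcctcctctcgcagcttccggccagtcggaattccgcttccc
Cox7b2, chr5:71548206-71548455, minus strand: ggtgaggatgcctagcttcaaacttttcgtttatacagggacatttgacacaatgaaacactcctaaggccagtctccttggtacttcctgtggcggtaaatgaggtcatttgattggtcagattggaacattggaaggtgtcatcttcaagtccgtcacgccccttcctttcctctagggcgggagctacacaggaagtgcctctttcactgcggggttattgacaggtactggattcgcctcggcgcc
Cox7b, chrX:106015450-106015699, plus strand: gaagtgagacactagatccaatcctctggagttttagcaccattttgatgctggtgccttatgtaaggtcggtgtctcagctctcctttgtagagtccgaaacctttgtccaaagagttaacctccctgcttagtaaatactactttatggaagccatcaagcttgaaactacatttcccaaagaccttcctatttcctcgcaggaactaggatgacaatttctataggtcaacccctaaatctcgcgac

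Windows from 250 bases before to 50 bases after the start were searched on both strands for 5 short words tied to factors, for the 65 members with a RefSeq promoter. GCATGCGC, the core of the site of NRF1 (a regulator of respiratory genes), was in 10 of 65 members (15.4%) and in 2.71% of all 27025 promoters. AAGATGGC, a YY1 word, was in 9 of 65 (13.8%) and in 2.85% of all, ACTTCCGG, a GABPA word, in 7.69% and 3.91%, TGACGTCA, a CREM and CREB word, in 6.15% and 1.77%, and AACNGTT, a MYBL1 word, in 3.08% and 4.43%. None of the 5 words was in the windows of Cox6b2, Cox6b1, Cox7b2 or Cox7b. The members with the NRF1 word were Ndufa6, Ndufa8, Ndufa11, Sdhb, Uqcr11, Uqcrc1, Cox6a1, Atp5g2, Atp5k and Atp5l. Its matches on opposite strands can overlap, so a run of 10 letters can hold it on both. Among the 13761 listed genes with a promoter, 4.19% had the NRF1 word, 3.73% the YY1 word, 6.16% the GABPA word, 2.56% the CREM word and 3.70% the MYBL1 word, so the GABPA share of the members was near that of listed genes. Cox6a1, at 235 CPM in A0 and 256 in A10, against 2476 in B0 and 491 in BA10, and Ndufa11, at 102 CPM in A0 and 119 in A10, against 553 in B0 and 251 in BA10, were both highest in B0 and are shown with the NRF1 word and, in Ndufa11, the CREM word in capitals.
Cox6a1, chr5:115348959-115349208, minus strand: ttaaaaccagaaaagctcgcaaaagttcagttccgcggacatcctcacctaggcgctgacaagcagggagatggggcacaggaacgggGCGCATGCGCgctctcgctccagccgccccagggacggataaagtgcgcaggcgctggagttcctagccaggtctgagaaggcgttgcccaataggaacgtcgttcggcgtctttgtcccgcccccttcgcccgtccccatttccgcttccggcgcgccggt
Ndufa11, chr17:56717512-56717761, plus strand: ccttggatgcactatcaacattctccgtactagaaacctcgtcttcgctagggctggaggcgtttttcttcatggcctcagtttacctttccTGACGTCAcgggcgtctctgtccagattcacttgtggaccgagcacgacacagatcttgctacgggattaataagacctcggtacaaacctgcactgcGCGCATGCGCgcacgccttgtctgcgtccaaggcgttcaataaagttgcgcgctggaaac

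The remaining pairs did not follow the testis pattern. Cox4i2, the lung form of subunit 4, had 8 UMIs in all of A0 and 73 in B0, of which endothelial-like cells held 39, 6.21% of both forms there against 0.0617% in Leydig-like cells. Cox6a2, the heart and muscle form of Cox6a, had between 11 and 88 UMIs in a library and at most 0.272% of its pair in any class. Its partner Cox6a1 was at 304 CPM in SPC-like cells of A0 and 3941 in Leydig-like cells of B0. Cox7a1 was 13.2% of the pair with Cox7a2 in Leydig-like and 24.4% in Sertoli-like cells of B0, and 0.0218% in SPC-like cells of A0. Cox8b, the heart and muscle form of subunit 8, was not among the listed genes.

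Cells with a UMI were also counted at equal depth. Each cell was set to 2985 UMIs, the lowest number in any cell, by exact calculation. At that depth Cox8c was expected in 99.8% of SPC-like cells of A0 (100% at full depth, median 11930 UMIs) and in 13.5% of Leydig-like cells of B0 (18.0%, median 4051 UMIs). Cox8a was expected in 4.2% and 99.7%. Cox7b2 was expected in 34.6% of SPG-like, 6.56% of Sertoli-like and 4.77% of Leydig-like cells of B0, and Cox8c in 21.7%, 13.8% and 13.5%. For Cox7b2 the share in SPG-like cells was well above Sertoli-like and Leydig-like cells, and for Cox8c it was nearer to them. In CPM, endothelial-like cells of B0 had more Cox7b2 than SPG-like cells, 286 against 151.

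A marker of Leydig cells moved with some of these levels. Insl3, a hormone that Leydig cells make, was at 0.485 CPM in SPC-like cells of A0, 0.504 in A10, 41.8 in BA10 and 159.9 in B0, against 11854 in Leydig-like cells of B0. In other classes of B0 it was at 7819 CPM in macrophage-like, 362 in Sertoli-like, 264 in SPG-like and 203 in endothelial-like cells. By Insl3, SPC-like cells of BA10 thus stood above those of A0 and A10, and those of B0 above BA10. The same held for Cox8a (13.7, 15.7, 36.7 and 185 CPM in A0, A10, BA10 and B0) and Cox7b (0.619, 0.666, 3.78 and 18.1 CPM). A0 and A10 were not ordered by Insl3 (29 and 31 UMIs) or by Cox7b (37 and 41 UMIs). Leydig-like cells of B0 held 4.61 UMIs of Cox7b and 18.9 of Cox8a for every 100 of Insl3. Those of BA10 held 5.92 and 30.2, and SPC-like cells of BA10 9.05 and 87.9. Both ratios were higher in these SPC-like cells than in the Leydig-like cells of B0 or BA10. SPC-like cells of A0, with 29 UMIs of Insl3, held 128 and 2828. In the other direction, the 127 Leydig-like cells of BA10 held 1908 CPM of Cox8c and 3115 of Insl3, far more Cox8c than those of B0. The class sat in different clusters in these libraries: 81 of the 127 cells of BA10 were in cluster 26, and 2915 of the 2946 of B0 in cluster 1. No caller of doublets was run, and whether free RNA or doublets gave these values was not tested.

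Of the 82 members placed on the genome 3 lie on the X chromosome, Ndufa1, Ndufb11 and Cox7b, and all 3 were lower in SPC-like and ST-like cells of A0 than in the SPG-like, Sertoli-like and Leydig-like cells of B0. Ndufb11 (X, 20615326 to 20617619 on mm10) was at 2.01 CPM in SPC-like and 5.59 in ST-like cells of A0, and at 204 in SPG-like, 332 in Sertoli-like and 826 in Leydig-like cells of B0. Cox7b (X, 106015700 to 106022450) was at 0.619 and 1.95 CPM, and then 114, 165 and 547. Both were lowest in SPC-like cells and somewhat higher in ST-like cells. Ndufa1 (X, 37187588 to 37191163), which has no second form among the members, was at 16.8 CPM in SPC-like and 8.90 in ST-like cells of A0, and at 379, 623 and 1104 in B0. In the SPC-like cluster of A0 with the highest spermatocyte marker score it was at 81.0 CPM, against 8.86 to 15.7 in the other 4 SPC-like clusters. The SPC-like cells of B0 were not low in Ndufa1: they had 419 CPM, above the SPG-like cells of that library, but 51.4 of Ndufb11 and 18.1 of Cox7b, below them. Those cells held 262 UMIs of Ndufa1 for every 100 of Insl3, against 9.31 in Leydig-like cells. For Ndufb11 these were 32.2 and 6.97, and for Cox7b 11.3 and 4.61.

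Over all members, pairs included, most were lower in SPC-like than in Leydig-like cells of B0: 55 were lower and 26 higher, where 55.2% of all genes compared were higher. Of 81 members compared, the median log2 ratio of SPC-like over Leydig-like was -0.38 against 0.24 over all genes, with 18 past 2-fold lower and 8 higher, where 28.3% and 34.6% of all genes compared were. The lowest were Cox7b (-4.84), Ndufb11 (-3.98), Cox8a (-3.59), Ndufa4 (-3.11) and Cox6b1 (-2.77). The highest were Cox7b2 (4.76), Cox8c (4.73), Cox6b2 (3.27), Ndufa4l2 (2.06) and Atp5sl (2.04). Atp5sl, a factor for complex I assembly despite its name, was at 51.4 CPM in SPC-like, 52.8 in SPG-like and 11.7 in Leydig-like cells. Ndufv2, a core subunit that carries an iron-sulphur cluster, was at 654, 223 and 257 CPM in these classes, so it was higher in SPC-like cells and not in SPG-like ones.

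In B0, SPG-like cells were further below Leydig-like cells than SPC-like cells were. The median log2 ratio of 80 members was -0.63 against 0.51 over all genes, and 24 members were past 2-fold lower and 2 higher, where 17.8% and 36.3% of all genes compared were. The lowest were Atp5g3 (-2.28), Cox7b (-2.26), Uqcr10 (-2.25), Ndufb11 (-2.01) and Ndufb4 (-1.87). The highest were Cox7b2 (2.31), Atp5sl (2.08), Cox7a2l (0.57), Ndufa11 (0.43) and Atp5s (0.30). Cox7a2l, which holds respiratory supercomplexes together, was at 302 CPM in SPG-like and 203 in Leydig-like cells. The genes of the c ring of ATP synthase, Atp5g1, Atp5g2 and Atp5g3, encode the same mature protein and were used unequally: Leydig-like cells had 1403, 534 and 1567 CPM, and SPG-like cells 956, 453 and 323. SPC-like cells of A0 had 159, 44.1 and 95.7 CPM, so Atp5g1 was the highest of the 3 in both germ cell classes and Atp5g3 in Leydig-like cells.

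**Figure D4:**
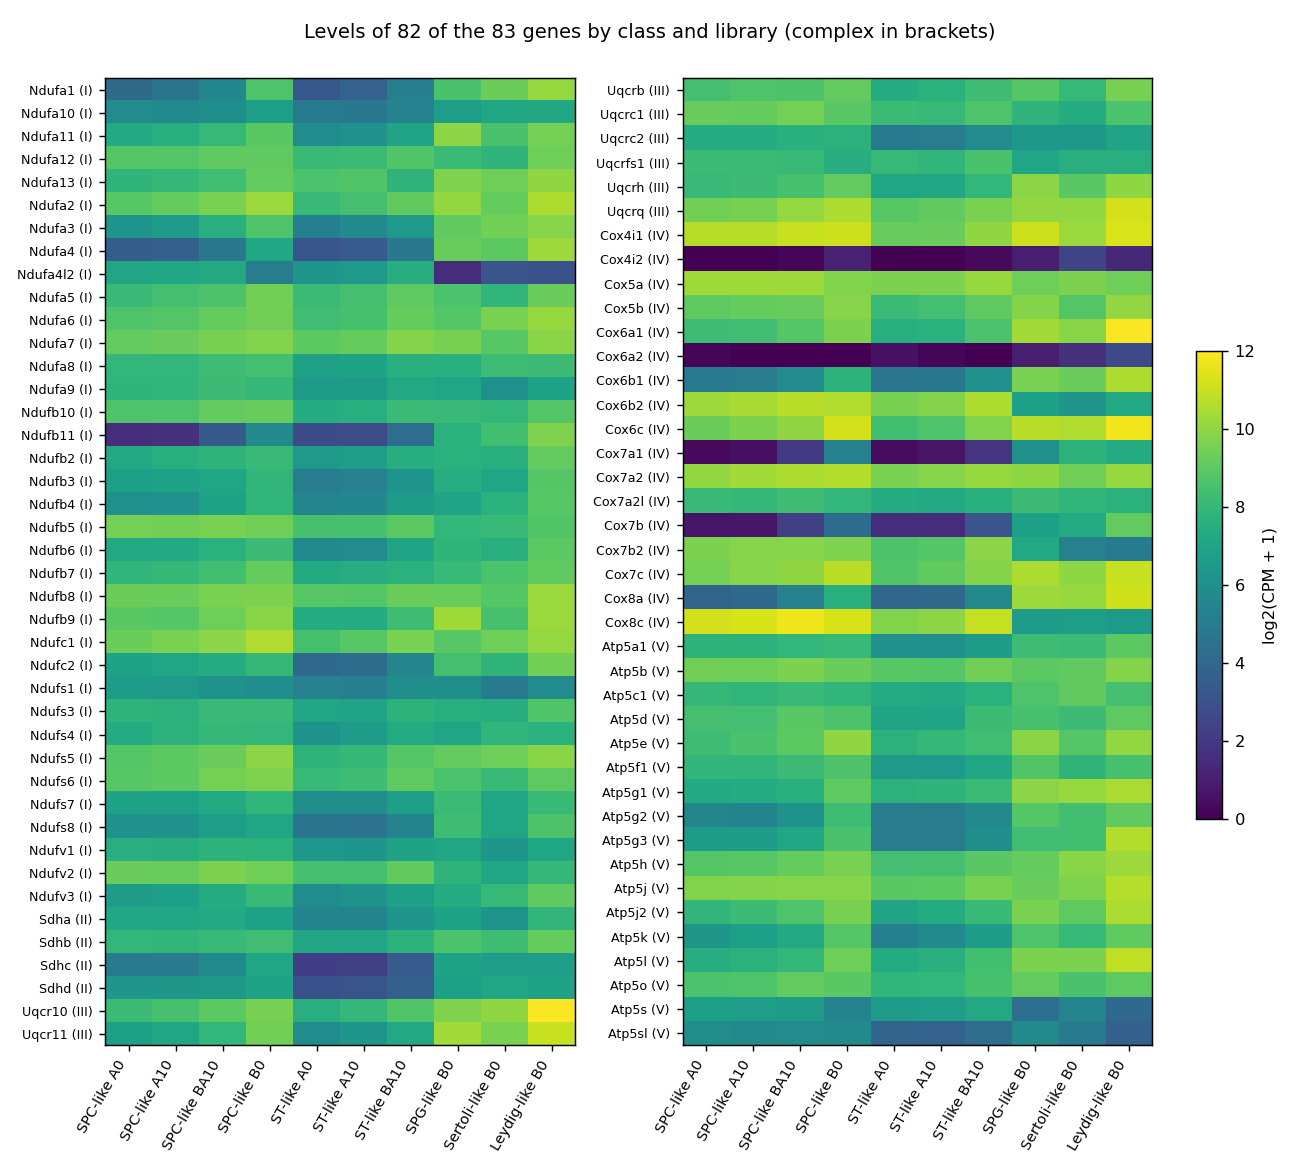
Levels of 82 of the 83 genes as log2(CPM + 1) in 10 classes of the libraries, with genes ordered by complex (in brackets) and name. Colour runs from 0 (dark) to 12 (bright). Most genes are bright in all columns, and Ndufa4, Ndufb11, Cox6b1, Cox7b and Cox8a are dark in SPC-like and ST-like cells of A0 and A10 where Cox6b2, Cox7b2 and Cox8c are bright.

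From SPC-like to ST-like cells of A0 the median member was lower by about as much as the median gene, but a larger part of the members was lower. Of the members compared 73 were lower and 4 higher, where 33.9% of all genes compared were higher. The median log2 ratio of 77 members was -0.82 against -0.69 over all genes, and 31 were past 2-fold lower and 0 higher, where 39.7% and 23.6% of all genes compared were. All 4 subunits of complex II were lower: Sdhd went from 78.1 to 7.01 CPM (-3.30), Sdhc from 29.5 to 3.63 (-2.72), Sdha from 141 to 41.2 (-1.75) and Sdhb from 248 to 144 (-0.78). Sdhc and Sdhd, which anchor the complex in the membrane, were lower by more than the catalytic Sdha and Sdhb. Ndufc2 (-2.88), Uqcrc2 (-2.37) and Atp5sl (-2.03) completed the 5 lowest. The highest were Ndufa13 (0.75), Atp5g1 (0.37), Cox8a (0.076), Ndufa5 (0.045) and Atp5l (-0.085). Across the ST-like clusters of A0 the summed share ran from 0.725% of UMIs, where the protamine gene Prm1 was at 61286 CPM, to 2.25%, where Prm1 was at 2066 CPM, and the part of the protamine UMIs in these shares was not tested.

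Within classes, A10 stood slightly above A0 in the summed share, though not in complex II. Complex II gave 0.0497% of UMIs in A0 and 0.0491% in A10 within SPC-like cells, with counting intervals that overlap. Within ST-like cells it gave 0.0196% and 0.0188%. The summed share of all members was higher in A10 in 15 of 15 clusters with at least 50 cells of both libraries, by 0.079 to 0.456 percentage points with a median of 0.196. These clusters come from the same 2 libraries, so they are not independent and do not stand as replicates. Within SPC-like cells the median log2 ratio of 78 members was 0.08 against -0.03 over all genes, with 0 members past 2-fold in either direction, where 0.0303% (higher) and 0.0455% (lower) of all genes were. Within ST-like cells it was 0.12 against -0.06 over 75 members, again with 0 past 2-fold, where 0.0506% and 0.0675% of all genes were. In SPC-like cells the highest were Atp5k (0.46), Ndufa1 (0.45), Ndufa3 (0.38), Uqcr11 (0.33) and Ndufs4 (0.33) and the lowest Atp5sl (-0.17), Ndufs1 (-0.13), Atp5g2 (-0.10), Ndufb9 (-0.10) and Ndufs7 (-0.094). In ST-like cells the highest were Atp5k (0.52), Ndufa3 (0.51), Ndufa1 (0.45), Uqcr11 (0.43) and Ndufs4 (0.41) and the lowest Ndufs1 (-0.15), Uqcrfs1 (-0.13), Ndufs3 (-0.13), Atp5sl (-0.11) and Ndufa10 (-0.11). Atp5k was at 79.6 and 110.0 CPM in SPC-like cells of A0 and A10 and at 35.8 and 51.8 in ST-like cells. Cox8c was at 2293 and 2499.7, and then 854 and 955. Nearly all SPC-like cells of both libraries were in clusters 0, 8, 10, 15 and 16, in unequal shares: cluster 15 held 304 of 3280 cells of A0 and 462 of 3558 of A10. Prm1, a spermatid gene, was higher in A10 in the same classes, at 1896 CPM in A0 and 2927 in A10 for SPC-like cells and at 19390.2 and 27527 for ST-like cells, and its part in these small ratios was not tested.

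Transcript length moved with the A10 and A0 ratios. This relation was sought after the values were seen and is given as a description. Over the 77 members with an annotated length, Spearman's rho between median transcript length and log2 A10 over A0 was -0.57, against -0.18 over all 6350 genes and -0.48 over 78 ribosomal protein genes. All points come from the same 2 libraries. The 42 members under 700 bases had a median log2 ratio of 0.19 and the other 35 had 0.05, and ribosomal protein genes split at the same length had 0.18 and 0.03. Within SPC-like cells the members' medians were 0.14 and -0.0065, and within ST-like cells 0.20 and 0.0037. Members with short transcripts thus stood higher in A10 than those with long ones, and ribosomal protein genes split alike. Library preparation and AOS cannot be told apart with 1 library each.

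**Figure D5:**
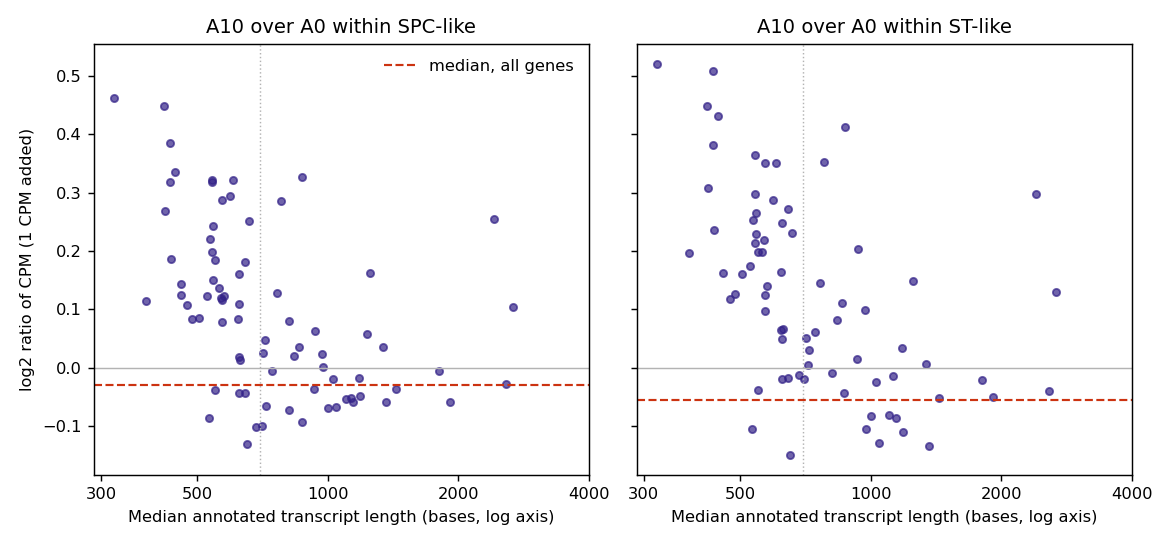
Log2 ratio of CPM of A10 over A0 (1 CPM added) against median annotated transcript length on a log axis, for members that could be compared within SPC-like (left) and ST-like cells (right). Points are genes, the red dashed line is the median of all genes compared and the dotted line marks 700 bases. The highest points are short transcripts and most points beyond 700 bases lie near or below 0.

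Within classes, BA10 stood above A0. In SPC-like cells the median log2 ratio of 78 members was 0.42 against -0.02 over all genes, with 73 higher and 5 lower, where 48.7% of all genes were higher. Ribosomal protein genes had a median of 0.45 there. In the same SPC-like cells Prm1 was at 1896 CPM in A0 and 32.1 in BA10, and Insl3 at 0.485 and 41.8, and their part in these ratios was not tested. Past 2-fold, 6 were higher and 0 lower, where 1.25% and 11% of all genes compared were. The 5 highest were Ndufa1 (1.42), Cox8a (1.36), Ndufa3 (1.28), Ndufa4 (1.26) and Uqcr11 (1.16), and the 5 lowest Ndufs1 (-0.53), Atp5s (-0.16), Atp5sl (-0.13), Uqcrfs1 (-0.078) and Cox5a (-0.054). Short transcripts led here too: the medians under and from 700 bases were 0.52 and 0.31. Over all genes they were 0.20 and -0.04, and over ribosomal protein genes 0.55 and 0.36, so the split was not particular to the members. SPC-like cells of the libraries sat in different clusters, clusters 0, 8, 10, 15 and 16 in A0 and clusters 5, 14 and 18 in BA10. Their summed shares were 2.45% to 3.99% in A0 and 3.39% to 4.65% in BA10.

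In ST-like cells BA10 exceeded A0 in 76 of 77 members and in 69.0% of all genes compared, with a median log2 ratio of 0.84 against 0.38 over all genes and 0.54 over ribosomal protein genes. Past 2-fold, 25 were higher and 0 lower, where 11.9% and 10.3% of all genes compared were. The highest were Ndufa1 (1.81), Cox8a (1.68), Ndufb11 (1.58), Ndufa4 (1.55) and Uqcr11 (1.41). Ndufa13, a complex I subunit also known as GRIM-19, was the exception, at 385 CPM in A0 and 219.7 in BA10 (-0.81). The next lowest were Cox7a2l (0.21), Atp5c1 (0.25), Atp5sl (0.37) and Ndufb7 (0.37). Insl3 was at 0.649 CPM in ST-like cells of A0 and 54.6 in those of BA10, and its part in these ratios was not tested. Most ST-like cells of BA10 (408 of 434) were in cluster 19, which held 2 cells of A0. Prm1 was at 121 CPM there and at least 2066 in each ST-like cluster of A0, so the ST-like cells compared were not alike in this marker.

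Cluster 14 was the SPC-like cluster that held most SPC-like cells of B0, with 206 of 207, and it held 564 of BA10. With clusters made at resolution 2 the libraries lay mostly apart: an SPC-like cluster held 179 cells of B0 and 138 of BA10, and another 29 and 426. The summed shares were 4.65% in BA10 and 4.71% in B0. The median log2 ratio of 81 members was -0.03 against -0.19 over all genes. In BA10, 39 members were higher and 42 lower, where 41.3% of all genes compared were higher. Past 2-fold, 7 were lower and 0 higher, where 21% and 2.79% of all genes compared were. The 7 were Cox7a1 (-2.66), Ndufa1 (-2.14), Ndufb11 (-2.0), Cox8a (-1.89), Cox7b (-1.73), Cox6b1 (-1.38) and Ndufa4 (-1.18), which are the muscle form Cox7a1 and common or X-linked forms. Insl3 was at 163 CPM in these cells of B0 and 47.2 in those of BA10, and its part in the 7 ratios was not tested. The 4 highest were Sdha (0.72), Uqcrc1 (0.66), Ndufa4l2 (0.65) and Ndufv2 (0.58). The median cell had 5098 UMIs in B0 and 20194 in BA10.

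Other genes of the pathway were read from lists of carriers, assembly factors and regulators. Of 10 carriers compared in B0 over A0, 7 were past 2-fold higher and 0 lower, beside 37.5% and 24.5% of all genes, with a median log2 ratio of 3.82. The largest were Slc25a5, an X-linked ADP/ATP carrier (6.44), Etfb, the beta subunit of the electron transfer flavoprotein (5.98), and Slc25a4, the heart and muscle ADP/ATP carrier (5.91). Cytochrome c and the ADP/ATP carrier followed the members' pattern: Cyct was 94.7% of Cycs and Cyct in SPC-like cells of A0 and 1.21% in Leydig-like cells of B0, and Slc25a31 was 96.1% and 0.395% of the 3 carriers. SPG-like cells of B0 had 4.64% Cyct but 43.7% Slc25a31, at 158 CPM against 4.09 in Leydig-like cells. Slc25a31 in SPG-like cells was above each somatic class of B0, the highest of which was endothelial-like at 28.6 CPM.

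Of 45 assembly factors 44 were listed and 32 could be compared in B0 over A0, with 15 past 2-fold higher and 4 lower, beside 37.5% and 24.5% of all genes, and a median of 0.59 against 0.23. The largest were Cox14 (4.27), Coa7 (3.72) and Cox17, a copper chaperone for complex IV (3.08). Ndufaf3, an assembly factor of complex I, was at 884 CPM in SPC-like cells of A0 and 714 in those of B0, against 40.8 in SPG-like and 88.1 in Leydig-like cells of B0. Of 9 regulators 6 could be compared, with 0 past 2-fold higher and 2 lower. Tfam, a factor for the packing and transcription of mitochondrial DNA, differed most. It was at 319.9 CPM in A0 and 289 in A10, against 18.2 in B0 and 7.78 in BA10. Its log2 ratio was -4.06 in B0 over A0 and -5.19 in BA10 over A0. Counts of 3' ends do not tell forms of its transcript apart. Next in B0 over A0 came Tfb1m (-1.30) and Tfb2m (0.87). Tfam was at 512 CPM in ST-like cells of A0, 43.5 in its SPC-like cells, 42.1 in ST-like cells of BA10 and 22.6 in Leydig-like cells of B0. In BA10 over B0, 2 carriers were past 2-fold higher and 7 lower, and of 34 assembly factors 2 were higher and 10 lower, while of 6 regulators 1 was higher and 1 lower, beside 20.5% higher and 34.1% lower over all genes. In A10 over A0 none of the 3 lists had a gene past 2-fold, and the largest were Cox17 (0.48), Pet100 (0.44) and Ndufaf2 (0.26) among assembly factors.

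Some counts carry an added doubt. Of the 83 members 29 share a stretch of at least 50 bases within the last 300 bases of a transcript with another annotated gene, so reads there could have been split or dropped in counting. Among them Atp5g1 and Atp5o share one with another listed gene, Commd7 and Donson. Whether such copies changed a level was not tested.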

How the data were processed

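Testis cells of 4 groups, 1 library each, were captured with 10x Genomics 3' chemistry. The authors processed reads with Cell Ranger 2.2.0 against mm10, removed cells under 200 genes and genes in fewer than 3 cells, and deposited values on a natural log scale (each cell's UMIs brought to a sum of 10000, with 1 added before the log). The stated processing fixed the number of cells per library in advance, and the cell numbers in the files do not match that setting. UMIs were recovered from these values, and 100% came out whole within 0.001. UMIs were summed per library or class and given as CPM. Ratios were log2 after adding 1 CPM, for genes with a mean of at least 10 CPM, and called past 2-fold. With 1 library per group no test was made, and exact 95% intervals (Clopper-Pearson for shares) cover counting error only. Cells were clustered without the members (2000 variable genes, 30 components, 15 neighbours, leidenalg 0.10.2 at resolution 1) and named from marker lists in which at least 3 markers were detected. Clusters that met no name stayed unnamed. No doublet caller was run. Python 3.11.15, numpy 2.4.6, scipy 1.17.1, scikit-learn 1.9.0 and igraph 0.11.9 were used, and the ratio step was tested on simulated data. Genes were placed with GENCODE M21, and 82 of 83 matched.

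The members, lists and named genes were chosen with earlier results of these data known. Named were both forms of each pair, the 5 highest and 5 lowest members of each comparison, the 2 most abundant of each complex, members under the limit, and the 3 largest differences of each list in B0 over A0. In cluster 14 all 7 members past 2-fold lower are named. The values of 1 member are not reported singly here. Endothelial-like cells, clusters 11, 16, 17, 20 and 25, the complex II subunits, the c ring genes, the X-linked genes and Ndufaf3 were singled out after their values were seen.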

Additional observations from a re-analysis of the deposited data

Results flagged for a closer look

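In these results A10 differed from A0 in one direction and BA10 from B0 in the other. Each side is 1 library and the differences between them were not tested. The summed share of UMIs was 0.218 percentage points higher in A10 than in A0, while BA10 less B0 was -1.78 points, a difference of -1.99. The median log2 ratio of the members differed by -0.69 between these comparisons. Among cells with at least 9013 UMIs the opposite direction was nearly lost: the shares were 3.67% in BA10 and 3.70% in B0, and the median log2 ratio was -0.0065. The 6 genes that follow are those members of the pairs whose counting intervals lay on opposite sides of 0 in the comparisons, so they were picked for going opposite ways. For example Cox7a2 was higher in both, at 0.26 and 0.20, and is not among them. The log2 ratio of BA10 over B0 less that of A10 over A0 was -0.19 for Cox4i1, -2.46 for Cox6a1, -3.72 for Cox6b1, -4.54 for Cox7a1, -4.41 for Cox8a and -4.09 for Ndufa4. Cox7a1 was under the limit of 10 CPM in A10 over A0. Leydig-like cells, in which these genes were high, made up 63.2% of B0 and 3.36% of BA10, and their part in these values was not tested.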

How the results depend on the processing

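No paired analysis was possible because each group is 1 library. No median log2 ratio of the members changed sign between libraries. Among cells with at least 9013 UMIs the summed share was 2.15% in A0, 2.39% in A10 and 3.70% in B0. As a mean over cells the control had 2.05% and A10 2.23%, against 5.90% for B0 and 3.69% for BA10. Without the members that are not subunits (Cox7a2l, Ndufa4l2, Atp5s and Atp5sl) the shares were 2.09%, 2.30%, 5.41% and 3.61%. With ratios taken less the median of all genes (-0.03, 0.23, -0.16 and 0.33 on the log2 scale), the members' medians became 0.15 (A10 over A0), 1.03 with B0 set against A0, -0.41 with BA10 set against B0, and 0.53 with BA10 set against A0, where 10 members were past 2-fold higher. With no filter the medians were 1.29 for B0 over A0 and -0.59 for BA10 over B0. With 10 CPM added the median of BA10 over A0 was 0.81, and 0 members were past 2-fold lower in B0 over A0. At the UMI limit B0 set against A0 had a median of 0.81, BA10 against B0 one of -0.0065 and BA10 against A0 one of 0.83. There 29 members were past 2-fold higher and 0 lower in B0 over A0, and 0 higher and 5 lower in BA10 over B0. At that limit BA10 was above B0 in the shares of complexes I, II and V, against below it in all cells, and Ndufa4l2 was 58.0% of its pair in B0, against 5.67%. Within SPC-like cells, resolution 0.5 gave 2.87% in A0, 3.11% in A10 and 3.73% in BA10, resolution 2 gave 2.88% in A0 and 3.08% in A10, classes set per cell gave 3.08%, 3.30% and 3.76%, and the UMI limit gave 3.08% in A10. Within ST-like cells, resolution 0.5 gave 1.67%, 1.86% and 2.51%, resolution 2 gave 1.64% in A0 and 1.81% in A10, classes per cell gave 1.81%, 2.02% and 2.87%, and the UMI limit gave 1.64% in A0 and 1.81% in A10. Counts past 2-fold in this section have no share of all genes beside them. The split by transcript length at 700 bases was chosen after seeing the data. B0 was the shallowest library and kept 448 cells at the limit. The causes of these shifts were not tested.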
